A study of Homo sapiens with 6 samples.

Results

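The expression of 10 SOX transcription factor genes (SOX2, SOX4, SOX5, SOX6, SOX8, SOX9, SOX11, SOX12, SOX13 and SOX18) was followed upon EWSR1::FLI1 knockdown in A673/TR/shEF cells. They were taken by gene symbol from the 26364 symbols of the expression table, and 9 of them had enough signal to be tested among 15504 genes. A673 is an established Ewing sarcoma line, in which the fusion oncogene EWSR1::FLI1 drives the tumour cell. The A673/TR/shEF derivative holds a Tet repressor and a doxycycline-inducible shRNA against the fusion. All 6 libraries came from this line: 3 from cells kept without doxycycline (EWSR1::FLI1 high) and 3 from cells given doxycycline at 1 µg/mL for 72 h (EWSR1::FLI1 low). No doxycycline-treated cells without the shRNA were analysed here, so an effect of the drug itself and of the knockdown cannot be told apart. The 3 samples of a group are independent clones by the study's design text, but their titles give experiment numbers. This was not settled, and the p-values measure only the spread between these samples. Expression was given as FPKM, a fragment count scaled by gene length and library size, which allows levels of different genes to be compared.

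SOX proteins bind DNA through a shared HMG box that recognises short AACAAT-like motifs in the minor groove and bends the helix. They usually act together with partner factors, and the family is split into groups by the similarity of that box. SOX2, of the SOXB1 group, maintains stem and neural progenitor cells. SOX4, SOX11 and SOX12 form the SOXC group of progenitors in neural and mesenchymal tissue. SOX5, SOX6 and SOX13 form the SOXD group, which has no transactivation domain of its own. SOX8 and SOX9 belong to the SOXE group, active in neural crest, testis and cartilage, and SOX9 works with SOX5 and SOX6 in chondrocytes. SOX18, a SOXF factor, acts in blood and lymphatic vessels. The EWSR1::FLI1 fusion binds GGAA motifs, and in tandem GGAA repeats it can build enhancers.

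The libraries held between 6980361 and 16658933 reads assigned to genes, as recovered from the FPKM values. The fusion transcript carries the 3' part of FLI1, so the level of FLI1 was read first as a check of the labels. It measured 11.3, 12.7 and 14.2 FPKM in the EWSR1::FLI1 high libraries and 2.91, 4.29 and 3.68 FPKM in the low libraries. It fell by 1.57 on the log2 scale (SE 0.18, limma adjusted p = 0.000676), so each library matched its label. Of 8 Ewing sarcoma marker genes, FLI1 among them, 7 fell past an adjusted p of 0.01 (limma), beside 3.37% of all tested genes. The summed level of the 8 went from 969-1003 FPKM in the high to 268-306 FPKM in the low libraries. The 3 endothelial markers summed to 0.614-0.806 FPKM in the high and 1.12-2.17 FPKM in the low libraries, and the 4 leukocyte markers to 0.583-1.17 and 0.737-1.99 FPKM. The 3 epithelial markers summed to 0.668-1.81 and 1.13-1.53 FPKM, and the 2 glial markers to 0.298-0.595 and 0.746-1.98 FPKM. None of these low-level markers was listed at 0 in every library, none passed the test, and their part in the results below was not tested. The low libraries differed more from each other than the high ones, with a chi-square per degree of freedom of 20.6 to 32.1 between pairs against 4.32 to 6.39. In bulk RNA, fewer cells of a type and less RNA per cell cannot be told apart.

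SOX9 rose and SOX2 fell upon EWSR1::FLI1 knockdown, and no other member passed the limit of an adjusted p of 0.01. The counts were 1 of 9 tested members higher, beside 4.51% of all tested genes, and 1 of 9 lower, beside 3.37%. FPKM ranges of the 3 high and 3 low libraries did not overlap for 5 of the 9 members (SOX2, SOX4, SOX5, SOX6 and SOX9), beside 41.1% of all tested genes. The 9 members had a median of 0.27 on the log2 scale, against -0.05 over all genes tested. An exact permutation test of 3 against 3 libraries cannot give a two-sided p below 0.1, so the calls rest on limma fitted across all genes.

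**Figure D1:**
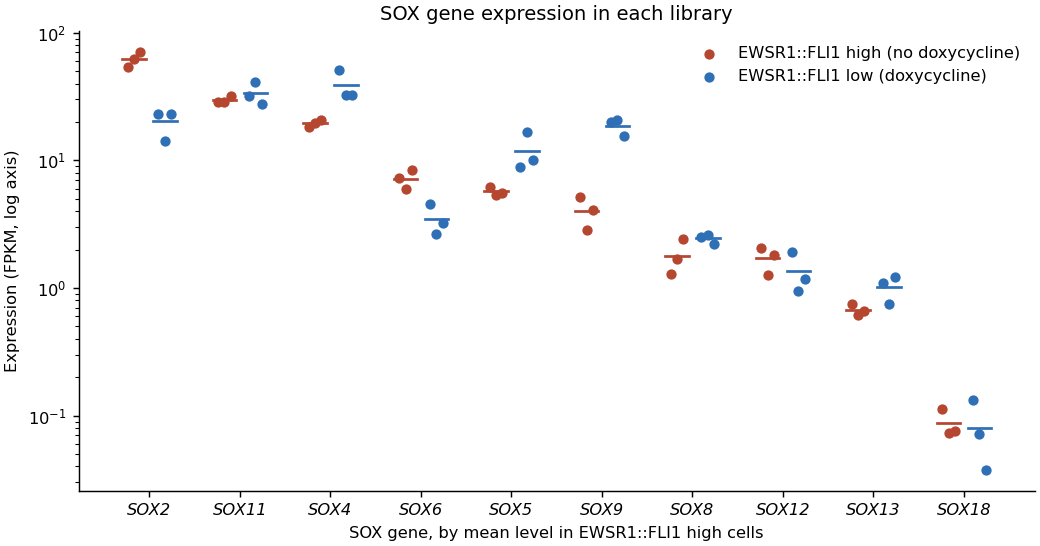
Expression of the 10 SOX genes (FPKM, log axis) in the 3 EWSR1::FLI1 high and 3 low libraries. Each point is a library and each bar the group mean. SOX2 lies between 54.2 and 70.5 FPKM in high and between 14.3 and 23.2 FPKM in low libraries, and SOX9 lies between 2.84 and 5.18 FPKM and between 15.5 and 20.7 FPKM.

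SOX2 was the most abundant SOX gene of the EWSR1::FLI1 high cells. Its gene (ENSG00000181449) is a single exon at chr3:181429713-181432224 on the plus strand of GRCh37, inside the long noncoding gene SOX2-OT of the same strand. SOX2 measured 54.2, 62.1 and 70.5 FPKM in the high libraries (mean 62.3 ± 8.15, SD, n = 3). In the low libraries it measured 23.1, 14.3 and 23.2 FPKM (mean 20.2 ± 5.13, SD, n = 3). Every low library was below every high library, by a ratio of means of 3.08. These levels came from 1244 to 1428 reads per high library and 294 to 908 reads per low library. SOX2 fell by 1.60 on the log2(FPKM + 1) scale (SE 0.23, 95% interval -2.13 to -1.08, limma adjusted p = 0.00207). The call was lost without high replicate 2 (adjusted p = 0.0156) and without high replicate 3 (adjusted p = 0.0174) and held in 13 of 15 alternative analyses, over which limma's adjusted p ran from 2.79e-05 to 0.0174. SOX2-OT itself was at 0.793, 1.04 and 0.664 FPKM in high and 0.716, 0.179 and 0.597 FPKM in low libraries, and did not pass the test (-0.31 on the log2 scale, limma adjusted p = 0.312). Whether counting used the strand is not given in the sources used here, and both RNAs have the same strand, so reads over the SOX2 exon could not be divided between them.

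SOX9 moved the other way. This master factor of cartilage formation and neural crest (ENSG00000125398, chr17:70117161-70122557, plus strand, 3 exons) measured 5.18, 2.84 and 4.07 FPKM in the EWSR1::FLI1 high libraries (mean 4.03 ± 1.17, SD, n = 3). In the low libraries it measured 19.8, 20.7 and 15.5 FPKM (mean 18.7 ± 2.75, SD, n = 3). All low libraries were above all high libraries, with 89 to 214 reads per high and 667 to 953 reads per low library. The ratio of means was 4.63, and SOX9 rose by 1.98 on the log2 scale (SE 0.22, 95% interval 1.49 to 2.48, limma adjusted p = 0.000532). Its call held in 15 of 15 alternative analyses, with a log2 fold change of 1.80 to 2.15 when single libraries were left out. The antisense gene SOX9-AS1 overlaps SOX9 on the opposite strand. It stayed under the filter at a mean of 0.392 FPKM in high and 0.467 FPKM in low libraries. LINC00673, a long noncoding RNA of the chromosome arm that also carries SOX9, measured 0.887, 1.06 and 1.37 FPKM in high and 5.58, 6.64 and 6.57 FPKM in low libraries. It rose by 1.79 on the log2 scale (SE 0.16, limma adjusted p = 0.000237), the only called gene among 3 tested RNAs of SOX loci.

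**Figure D2:**
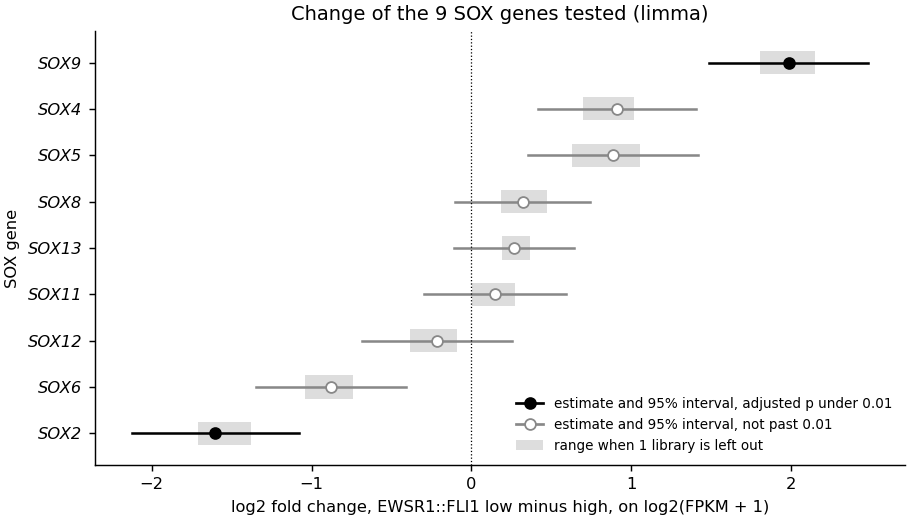
Log2 fold change (EWSR1::FLI1 low minus high, on log2(FPKM + 1)) of the 9 SOX genes tested. Points with lines are limma estimates with 95% intervals, filled where the adjusted p was under 0.01, and grey bars show the range when single libraries were left out. SOX9 stands at 1.98 and SOX2 at -1.60, and the intervals of SOX8, SOX11, SOX12 and SOX13 include 0.

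SOX4, SOX5 and SOX6 had groups that did not overlap but missed the limit. SOX4 (ENSG00000124766, chr6:21593982-21598850, plus strand, 1 exon) measured 18.4, 19.7 and 20.8 FPKM in high and 51.0, 32.6 and 32.3 FPKM in low libraries. Its ratio of means, low over high, was 1.97 and its log2 fold change 0.91 (95% interval 0.42 to 1.41, limma adjusted p = 0.0206). Low replicate 1 was far above the other two low libraries for SOX4. Without that library the log2 fold change was smaller, at 0.70, and its adjusted p was 0.00597, within a range of 0.000916 to 0.0917 over the limma alternatives. A gene of the opposite strand, ENSG00000283480, overlaps SOX4, and reads of the 2 could not be told apart without strand. Genes of the opposite strand also overlap SOX5, SOX6, SOX9, SOX12 and SOX13, and a gene of the same strand overlaps SOX11. Whether their exons overlap was not examined.

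The SOXD partners SOX5 and SOX6 had log2 fold changes of opposite sign. SOX5 (ENSG00000134532, chr12:23682438-24715478, minus strand, 15 exons) measured 6.24, 5.40 and 5.56 FPKM in high and 8.85, 16.7 and 10.0 FPKM in low libraries. The log2 fold change was 0.89 (95% interval 0.36 to 1.42, limma adjusted p = 0.0297, range over alternatives 0.000313 to 0.110). SOX6 (ENSG00000110693, chr11:15987995-16761138, minus strand, 16 exons) measured 7.22, 5.95 and 8.42 FPKM in high and 4.58, 2.67 and 3.25 FPKM in low libraries. Its log2 fold change was -0.88 (95% interval -1.34 to -0.41, limma adjusted p = 0.0195, range over alternatives 0.000509 to 0.0895). Both passed the limit when low replicate 1 was left out, SOX5 at 1.05 (limma adjusted p = 0.00864) and SOX6 at -1.04 (limma adjusted p = 0.00426) on the log2 scale. Leaving out that library also raised the calls over all genes from 1222 to 2334. Neither gene passed when any other single library was left out. Without low replicate 2, the highest for SOX5, it stood at 0.63 (limma adjusted p = 0.0608) and SOX6 at -0.74 (limma adjusted p = 0.0560). SOX6 was above SOX5 within each of the 3 high libraries, though the 2 ranges overlapped, and below SOX5 within each of the 3 low libraries, without overlap.

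SOX11, SOX8, SOX12 and SOX13 gave intervals that included 0. SOX11, a SOXC factor (chr2:5832516-5841517, plus strand), measured 28.7, 28.9 and 31.8 FPKM in high and 31.9, 40.9 and 27.8 FPKM in low libraries. The groups overlapped, and the log2 fold change was 0.15 (95% interval -0.30 to 0.59, limma adjusted p = 0.637). The SOXE factor SOX8 (chr16:1031770-1036979, plus strand) ranged from 1.28 to 2.41 FPKM in high and from 2.23 to 2.60 FPKM in low libraries, a log2 fold change of 0.32 (95% interval -0.10 to 0.74, limma adjusted p = 0.260). SOX12 (chr20:306196-310868, plus strand) ranged from 1.27 to 2.07 FPKM and from 0.942 to 1.93 FPKM, a log2 fold change of -0.22 (95% interval -0.68 to 0.25, limma adjusted p = 0.507). SOX13 (chr1:204042243-204096871, plus strand) ranged from 0.616 to 0.749 FPKM and from 0.748 to 1.23 FPKM, a log2 fold change of 0.27 (95% interval -0.11 to 0.65, limma adjusted p = 0.297). A miss of the limit does not show equal levels. In data simulated for the 15504 genes, 4% of those changed by 1 on the log2 scale were recovered, and 63% at 2. The changed genes were 100 per fold size, all better expressed than SOX8, SOX12 and SOX13. In the real data 1222 genes were called, so the adjustment was stricter in the simulation. Its shares are therefore not recovery rates for these members. SOX18 (chr20:62678935-62680992, minus strand) had 1 or 2 reads in every library, under the floor of 3 reads, which stands for 0.113 to 0.227 FPKM, and was not tested.

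The order of the levels changed with the condition. In EWSR1::FLI1 high cells the mean levels ran from SOX2 to SOX11, SOX4, SOX6, SOX5, SOX9, SOX8, SOX12, SOX13 and SOX18. In that order the neighbours SOX6 and SOX5 had overlapping ranges, as did SOX8 and SOX12, while the other neighbours did not overlap. In EWSR1::FLI1 low cells SOX4 and SOX11 led with overlapping ranges, followed by SOX2, SOX9 and SOX5. SOX2 overlapped SOX9 there, and SOX9 overlapped SOX5. SOX6, SOX8, SOX12, SOX13 and SOX18 came after them, and of these only SOX12 and SOX13 overlapped as neighbours. SOX2 exceeded 91.6% of tested genes in mean FPKM in high cells and 75.1% in low cells. For SOX9 the share was 42.3% in high and 73.3% in low cells.

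The summed level of the 10 members was close in the 2 conditions while its make-up differed. It was 133 ± 11.6 FPKM (SD, n = 3) in high libraries, ranging from 124 to 146 FPKM, and 131 ± 14.1 FPKM (SD, n = 3) in low libraries, ranging from 117 to 145 FPKM. SOX2 made up 46.7% ± 2.67 of the sum in high libraries and 15.5% ± 4.55 in low libraries (SD, n = 3 each). The SOXC genes made up 38.5% ± 1.20 and 55.8% ± 3.06 of the sum over all members, of which SOX4 alone gave 14.8% and 29.2% of that same sum. The SOXE genes made up 4.39% ± 0.847 and 16.1% ± 1.33, mostly through SOX9, while the SOXD genes stood at 10.3% ± 1.09 and 12.6% ± 2.61. The ratio of SOX2 to SOX9 lay between 10.5 and 21.9 in the high libraries and between 0.690 and 1.49 in the low libraries. These shares describe the levels given above and were not tested.

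**Figure D3:**
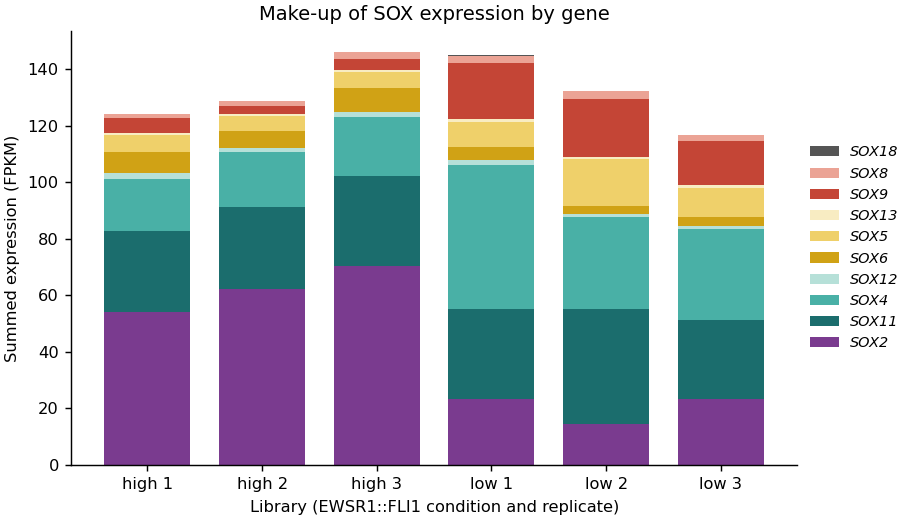
Summed expression of the SOX genes (FPKM) in each of the 6 libraries, stacked by gene. The sum lies between 117 and 146 FPKM in every library, while the SOX2 part is 54.2 to 70.5 FPKM in high and 14.3 to 23.2 FPKM in low libraries.

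The other SOX genes of the table were scarce. SOX1, SOX3, SOX7, SOX10, SOX14, SOX15, SOX17, SOX21 and SOX30 were all 9 listed, all below 1 FPKM in each library, and none reached the filter. SOX1, a SOXB1 relative of SOX2, measured 0.905, 0.489 and 0.786 FPKM in high and 0.164, 0.208 and 0.0312 FPKM in low libraries. That is 39, 16 and 25 reads against 6, 7 and 2 reads, without overlap (exact two-sided permutation p = 0.1, the smallest possible). With no filter on low values its log2 fold change was -0.60 (limma adjusted p = 0.0331). SOX15 measured 0.0684, 0.270 and 0.370 FPKM in high and 0.403, 0.612 and 0.552 FPKM in low libraries, from at most 12 reads per library.

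GGAA repeats were mapped around each member in the GRCh37 sequence, since the fusion binds such repeats. A repeat was counted as at least 4 uninterrupted GGAA units on either strand. The gene start was the outermost annotated start of each gene, and starts inside a gene were not used. Within 100000 bases of the gene start, 7 of 10 members had a repeat, beside 54.6% of the 13893 tested genes with a position. Repeats of 10 or more units lay in that window for 3 members, SOX2 with 13 units, SOX12 with 12 and SOX11 with 10, beside 19.03% of the genes. SOX9 had a single repeat of 4 units, 26197 bases downstream of its start, and SOX6, SOX8 and SOX18 had none in the window. SOX6 has further starts inside the gene, and its repeats were not placed against those. The bodies of the long genes SOX6 and SOX5 held 7 and 3 repeats, 0.905 and 0.290 per 100 kb beside 0.574 over the genome, the longest of 16 units in each. None of the repeats overlapped an annotated exon. The following stretches are shown because they are the start of the longest repeat near SOX2, of the longest inside SOX5 and of 1 of the 2 equally long repeats inside SOX6, and the whole short repeat near SOX9. All are on the plus strand, 5′ to 3′, with the GGAA units in capitals.
SOX2, first 5 of 13 units, chr3:181391394-181391423, 38284 bases upstream of the start, in an intron of SOX2-OT: gagaaagaaaGGAAGGAAGGAAGGAAGGAA
SOX6, first 5 of 16 units, chr11:16395359-16395388, in an intron: gagggagagaGGAAGGAAGGAAGGAAGGAA
SOX5, first 5 of 16 units, chr12:24460377-24460406, in an intron: tagctggaaaGGAAGGAAGGAAGGAAGGAA
SOX9, all 4 units, chr17:70143345-70143372, downstream of the gene: gaggagGGAAGGAAGGAAGGAAaaggaa
A repeat in the sequence is a description and not a bound site, since binding was not measured in these files. Of the called members, SOX2 (lower) had a long repeat in the window and SOX9 (higher) the shortest counted, while SOX11 and SOX12 had long repeats and intervals that included 0.

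**Figure D4:**
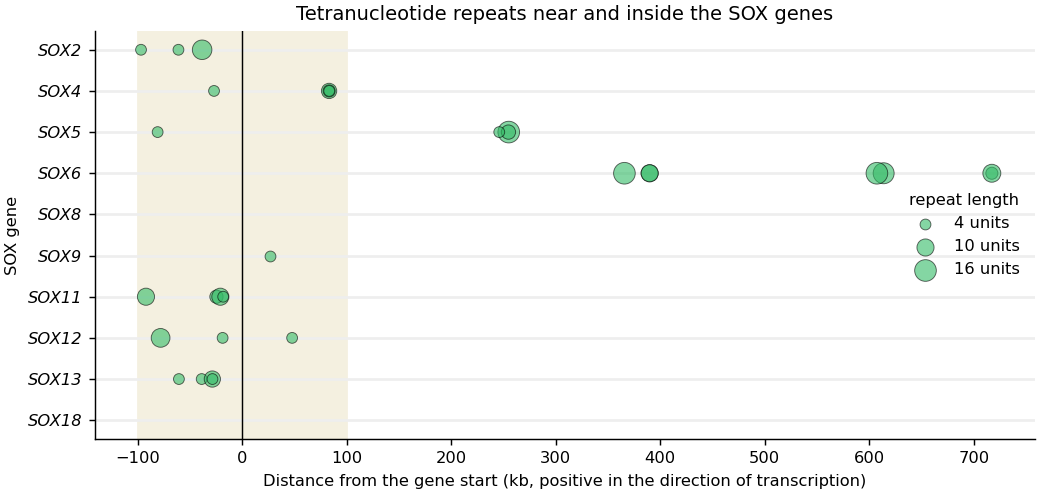
GGAA repeats near and inside the 10 SOX genes, by distance from the outermost annotated start of the gene (kb, positive in the direction of transcription). Each point is a repeat, its area shows the number of units, and the shaded band is the window of 100000 bases to each side. The longest repeats, of 16 units, lie inside SOX6 and SOX5, outside the band.

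The promoters were read for the same letters and for the SOX motif. RefSeq windows of GRCh38.p14, from 250 bases before to 50 bases after a start, matched 6 of the 10 members in 10 windows (SOX2, SOX4, SOX5, SOX12, SOX13 and 5 windows of SOX6). GGAAGGAA, on either strand, was in 3.67% of the 35116 windows and in 1 SOX6 window, and CCGGAAGT, the usual ETS motif, was in 4.14% of the windows and in no member window. AACAAT, the SOX motif, on either strand, was in 10.1% of the windows, in the SOX5 window and in 3 of the 5 SOX6 windows. Bases G and C made up 29.7%, 41.7% and 40% of those SOX6 windows and 63.7% of the SOX5 window. The share of windows with AACAAT was not compared at like base content. An AACAAT site of each gene is shown because SOX5 and SOX6 were the only matched members whose windows hold it, and the GGAAGGAA site because it was the only one in a member window. All are written 5′ to 3′ along the minus strand, on which both genes lie, with the motif or its reverse complement in capitals.
SOX5, chr12:24562657-24562678, 179 bases upstream of the start, SOX motif: cctcccccATTGTTcctactgt
SOX6, chr11:16402965-16402986, 115 bases upstream of a start, SOX motif: tgtgagggAACAATggacttgt
SOX6, chr11:16356559-16356582, 28 bases upstream of another start, GGAAGGAA read on the other strand: tctctgttTTCCTTCCcctgtgct
No match says only that these letters were not in the window.

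Genes that SOX factors are known to work with or act on were described by list. The lists were chosen with earlier results of these data known. Over all tested genes, 4.51% rose and 3.37% fell past the limit, with a median log2 fold change of -0.05. These values are the background for every list below. Of 16 SOX2 partner and stem cell genes listed, 8 were tested, of which 3 fell and 1 rose, with a median log2 fold change of -0.33 beside -0.05 over all genes. The neural POU factors POU3F1 and POU3F2, which pair with SOX2 on DNA, both fell. POU3F1 measured 9.57, 9.77 and 10.2 FPKM in high and 2.65, 1.42 and 2.08 FPKM in low libraries (-1.85 on the log2 scale, SE 0.19, limma adjusted p = 0.000363). POU3F2 had a log2 fold change of -1.35 (SE 0.20, limma adjusted p = 0.00259) and LIN28B, an RNA-binding protein that blocks let-7 maturation, one of -1.66 (SE 0.23, limma adjusted p = 0.00173). NES, the intermediate filament of neural progenitors, rose from 12.4 ± 2.98 to 42.9 ± 13.9 FPKM (SD, n = 3; 1.70 on the log2 scale, SE 0.27, limma adjusted p = 0.00336). The pluripotency factors POU5F1 and NANOG stayed below 1 FPKM in each library, and PAX6 had a log2 fold change of -0.07 (limma adjusted p = 0.821).

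Of 15 cartilage genes that SOX9 is known to act on with SOX5 and SOX6, 5 were tested and 1 rose, with 0.43 as the median on the log2 scale. It was COL11A1, a fibrillar collagen of cartilage that mesenchymal cells also make, at 0.704, 0.826 and 0.746 FPKM in high and 24.7, 53.3 and 85.7 FPKM in low libraries. All low libraries were far above the high ones (4.81 on the log2 scale, SE 0.37, limma adjusted p = 0.000116). The chondrocyte-defining genes COL2A1, ACAN and MATN1 stayed under the filter, and their sum was 0.453 to 0.719 FPKM in high and 0.530 to 1.44 FPKM in low libraries. COL9A3, another cartilage collagen, had a log2 fold change of 0.57 (limma adjusted p = 0.0493) and HAPLN1, a link protein, one of -0.54 (limma adjusted p = 0.0763).

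The remaining lists held a few called genes each. Of 11 neural crest and glial genes of SOXE factors, 9 were tested and 1 rose, with a median log2 fold change of 0.70. It was SNAI2, a zinc finger repressor of epithelial genes, at 3.75, 4.70 and 4.71 FPKM in high and 37.01, 18.6 and 24.7 FPKM in low libraries (2.32 on the log2 scale, SE 0.25, limma adjusted p = 0.000475). TFAP2A (0.81, limma adjusted p = 0.0165) and MITF (0.78, limma adjusted p = 0.0237) had positive log2 fold changes and FOXD3 a negative one (-0.72, limma adjusted p = 0.0231), none past the limit. Of 5 targets of SOX4 and SOX11, 4 were tested, 1 rose and 1 fell, with a median log2 fold change of 0.01. SEMA3C, a secreted semaphorin, rose by 2.08 on the log2 scale (SE 0.34, limma adjusted p = 0.00398), and EZH2, the methyltransferase of a Polycomb repressive complex, fell by 1.17 (SE 0.22, limma adjusted p = 0.00751). Of 8 endothelial targets of SOXF factors, 3 were tested and 1 rose, with a median of -0.02. It was VCAM1, an adhesion molecule, at 10.4, 8.42 and 7.62 FPKM in high and 53.5, 129 and 52.5 FPKM in low libraries (2.89 on the log2 scale, SE 0.34, limma adjusted p = 0.000702). SOX18 itself stayed under the floor of 3 reads. Some of these calls were lost when single libraries were left out. LIN28B missed the limit without high replicate 2 or 3 (limma adjusted p up to 0.0143), and POU3F2 without high replicate 1 or 3 (up to 0.0174). NES missed it without any of the high libraries or low replicate 3 (up to 0.0182). SEMA3C missed it without any of the high libraries, low replicate 2 or low replicate 3 (up to 0.0173), and EZH2 without any of the high libraries or low replicate 2 (up to 0.0490).

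**Figure D5:**
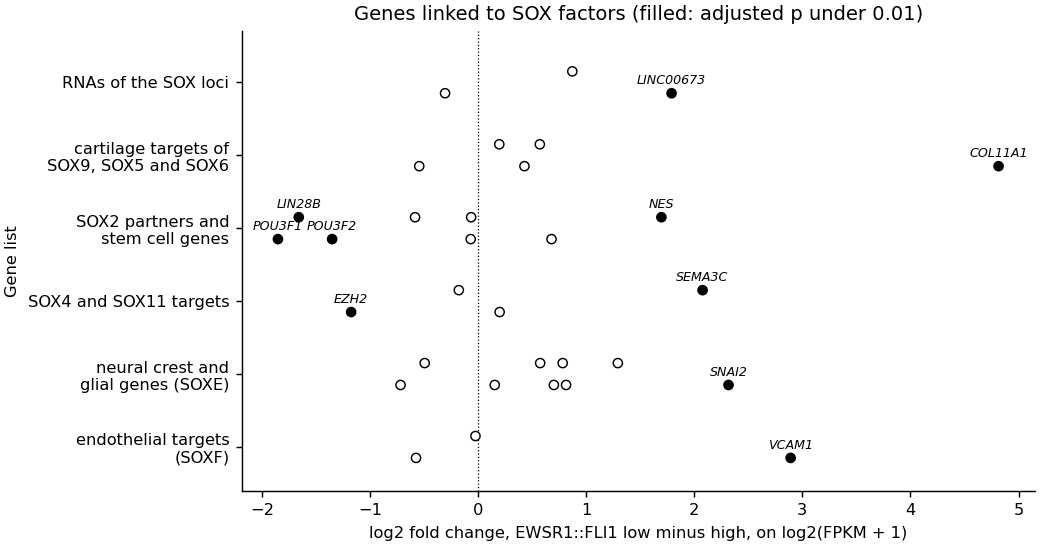
Log2 fold change (EWSR1::FLI1 low minus high, on log2(FPKM + 1)) of the tested genes in each SOX-linked list. Each point is a gene, filled where the limma adjusted p was under 0.01. COL11A1 at 4.81 lies farthest to the right and POU3F1 at -1.85 farthest to the left.

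Over the 6 libraries the profiles most like SOX9 were those of LRIG3, a leucine-rich repeat membrane protein, NDNF, a secreted neurotrophic factor, and MYO6, a myosin, each with a Pearson r of 0.995. Pearson r does not reflect the size of a change. The log2 fold change was 1.33 for LRIG3, 0.40 for NDNF and 1.04 for MYO6, against 1.98 for SOX9. NDNF did not pass the limit (limma adjusted p = 0.0970). The profiles most like SOX2 were those of LIN28B (r = 0.998), ADRB1, an adrenergic receptor (r = 0.997), and CADPS2, a secretion activator (r = 0.996). These correlations are descriptions over 6 libraries that fall into the 2 conditions and carry no test.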

How the data were processed

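RNA of A673/TR/shEF cells was sequenced from 3 EWSR1::FLI1 high and 3 low libraries, grouped by the GEO labels. The authors deposited FPKM values per gene and library, together with a signal column, the mean normalised count per gene over all libraries. Their fold change, error, statistic and p-value columns were not used. The submitters' processing notes name STAR 2.5.0b, bedtools 2.17.0, Cufflinks 2.2.1, DESeq2 1.6.3 and GRCh37. Libraries were ribosomal RNA depleted, and strand use in counting is not given in the sources used here. From the deposited FPKM and mean count, whole reads were recovered for 100% of values above 0 (within 0.1 reads), which gave the depth of each library.

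Genes whose FPKM averaged 0.5 or more over the 6 libraries were tested on log2(FPKM + 1) by limma 3.58.1 with an eBayes trend in R 4.3.3, with Benjamini-Hochberg adjustment over 15504 genes and a call limit of 0.01. Fold changes of low genes are understated on this scale. The analysis was tested on simulated data (100 genes changed per fold size, 1 unchanged gene called). Python 3.11.15, pandas 2.3.3, scipy 1.17.1 and matplotlib 3.10.9 were used for tables and plots. Alternatives changed the pseudocount, filter, scaling, variance model and libraries. Gene positions and repeats came from a GRCh37 annotation and sequence, promoters from RefSeq. All 10 members are named, with the called genes of each list, a few others of each list with their values, and the 3 profiles most like SOX9 and SOX2. The members and gene lists were chosen with earlier results of these data known. The HMG box sequences were not analysed here.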

Additional observations from a re-analysis of the deposited data

How the results depend on the processing

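Over 15 alternative analyses no called direction reversed, FLI1 and SOX9 kept their calls in all of them, and SOX2 kept its call in 13. The SOX members called higher (1 in the report) were 2 by limma-voom on recovered reads and 3 with sample quality weights, and those called lower (1) were 2 and 2. Leaving out single libraries gave 1 to 3 higher and 0 to 2 lower. The 0 came from leaving out high replicate 2 or high replicate 3, and the 3 and the 2 from leaving out low replicate 1, without which SOX4, SOX5 and SOX6 passed the limit. Over all genes, 700 were called higher in the report, 456 with no filter on low values, 2488 with sample quality weights, and 308 (without high replicate 2) to 1527 (without low replicate 1) when single libraries were left out. Those called lower were 522 in the report, 297 with no filter, 813 with median-ratio scaling, 1000 with quantile normalization, 784 by limma-voom, 2257 with sample quality weights, and 157 (without high replicate 3) to 807 (without low replicate 1) when single libraries were left out. The listed genes called higher were 6, and 11 with sample quality weights. The listed genes called lower were 4, and 1 to 5 when single libraries were left out. EZH2 and SEMA3C missed the limit with no filter (limma adjusted p = 0.0146 and 0.0103). The cause of these shifts was not tested. Higher genes made up 57.3% of called genes in the report, 49.8% under quantile normalization, and 37.6% (without low replicate 3) to 67.2% (without high replicate 3) when single libraries were left out.

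In a fit blocked on replicate number, 916 genes were called higher and 786 lower, against 700 and 522 in the report. The SOX members called were still 1 higher and 1 lower. Same-numbered libraries deviated together weakly (r = 0.271, 0.0889 and 0.124, against -0.289 to 0.189 for different numbers). High replicates 1 and 2 correlated best with the low replicate of their own number, and high replicate 3 with low replicate 2. Whether the numbers are pairs was not settled, and the main fit did not use them as pairs. Few reads limit what can be said of SOX18, with at most 2 per library. None of the 9 SOX genes outside the members reached the filter either. The filter is on mean FPKM, which is scaled for library size, so these genes missed it by their low level.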
